A study of Mus musculus with 2 samples.

Results

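Integrins are adhesion receptors made of 1 alpha and 1 beta subunit. The CD11c-selected cells described here were chosen by such a subunit, CD11c, the product of Itgax. The values below are those of 9 other subunit genes, Itgal, Itgb2, Itgae, Itga4, Itgb7, Itgb1, Itgav, Itgb5 and Itga6, which were taken by name from the 27998 genes counted. All 9 were found once by symbol and all 9 passed the filter on low counts. The data are unique molecular identifier (UMI) counts of single cells taken from tumours (labelled as tumor microenvironment) of C57BL/6N mice with PyMT, a viral oncogene that causes mammary tumours. Both libraries are labelled wild type, CD11c-positive and myeloid, and they are the only group, so every comparison is between kinds of cells inside the selection. The labels give no age or sex and do not say whether the 2 libraries come from separate animals. All p-values therefore measure only how evenly the differences between classes repeat in these 2 libraries, a spread that may be technical. After filtering, 3116 cells were kept, 1900 in replicate 1 and 1216 in replicate 2, with median depths of 5670 and 7142 UMIs per cell.

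The pairing of subunits decides what an integrin binds. The alpha L and beta 2 chains (Itgal, Itgb2) form LFA-1, which binds ICAM molecules on other cells, and beta 2 is also the partner of CD11c. The alpha E and beta 7 chains (Itgae, Itgb7) form the receptor for E-cadherin on epithelium and alpha E is known as CD103, which marks many tissue cDC1s and intraepithelial T cells. The alpha 4 chain (Itga4) pairs either with beta 1 (Itgb1) to bind VCAM-1 and fibronectin or with beta 7 to bind MAdCAM-1. The alpha v chain (Itgav) pairs with several beta chains, among them beta 5 (Itgb5), and binds vitronectin, other proteins with an RGD motif and, through bridging proteins, dying cells. The alpha 6 chain (Itga6) pairs with beta 1 or beta 4 and binds laminin in basement membrane.

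Cells were put in classes by lists of marker genes, none of them an integrin. Of the 157 markers written, those of plasmacytoid DCs, mast cells, pericytes, erythroid cells and platelets, and cycling cells placed no cell. Trac, Trbc1, Trbc2 and Ighm were not found by symbol. Classes entered the comparisons if both libraries held at least 20 of their cells, which 9 did, and their names stand for cells that resemble the type by these markers, not for an annotation by the authors. They were 89 T and NK lymphocytes, 142 epithelial cells, 51 fibroblasts, 179 cDC1s (conventional dendritic cells type 1), 74 mature dendritic cells (mature DCs, high in Ccr7 and Fscn1), 352 cDC2s, 252 cells of the monocyte gate, 247 resident-like macrophages (high in Folr2 and Cbr2) and 1168 C1q macrophages. In the monocyte gate Retnla (14166 CPM) and Ear2 (1450 CPM) led (CPM, the UMIs per 1000000 UMIs of the class), whereas the monocyte genes Ly6c2, Chil3 and Vcan stood at 272.7, 17.4 and 6.2 CPM, so these cells are called Retnla/Ear2-high cells. The summed level of the 10 macrophage markers was 47270 and 42950 CPM in resident-like macrophages of replicate 1 and replicate 2 and 47350 and 58380 in C1q macrophages. It was between 489 and 3017 CPM in the other 7 classes. A macrophage score within 0.1 of its limit was held by 191 cells, so that limit cuts through a continuous range. The monocyte limit was the softest, with 369 cells within 0.1 of it for 252 cells in the class, and the cDC2 limit had 139 such cells. The smallest class sums were those of mature DCs and fibroblasts of replicate 2 with 26 cells each and of resident-like macrophages of replicate 2 with 30 cells.

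The 300 bases around the start of transcription, 250 before and 50 after, were available for 5 of the 9 genes. The windows of Itgav, Itgb5, Itga4 and Itgb7 are shown because these genes differed between dendritic cells and macrophages. Itga4 and Itgb7 were higher in dendritic cells, and Itgav and Itgb5 were lower. Itgae (higher) and Itga6 (lower) differed as well but had no window. Sequences are from the RefSeq promoter table on build GRCm38.p6, 5′ to 3′ on the strand of the gene, and capitals mark matches to the motifs searched.
Itgav, chr2:83724147-83724446, plus strand: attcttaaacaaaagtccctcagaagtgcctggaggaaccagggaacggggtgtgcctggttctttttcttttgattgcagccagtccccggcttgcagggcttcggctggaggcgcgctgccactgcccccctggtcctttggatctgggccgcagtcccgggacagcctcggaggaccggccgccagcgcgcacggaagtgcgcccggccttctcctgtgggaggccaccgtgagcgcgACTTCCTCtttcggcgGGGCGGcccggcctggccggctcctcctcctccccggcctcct
Itgb5, chr16:33829415-33829714, plus strand: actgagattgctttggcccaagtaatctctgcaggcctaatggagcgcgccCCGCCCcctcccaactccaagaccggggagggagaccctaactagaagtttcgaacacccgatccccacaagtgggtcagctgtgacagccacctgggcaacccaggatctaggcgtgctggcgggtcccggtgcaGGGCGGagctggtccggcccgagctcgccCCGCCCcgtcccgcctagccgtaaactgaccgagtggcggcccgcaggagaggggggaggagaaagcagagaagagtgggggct
Itga4, chr2:79255176-79255475, plus strand: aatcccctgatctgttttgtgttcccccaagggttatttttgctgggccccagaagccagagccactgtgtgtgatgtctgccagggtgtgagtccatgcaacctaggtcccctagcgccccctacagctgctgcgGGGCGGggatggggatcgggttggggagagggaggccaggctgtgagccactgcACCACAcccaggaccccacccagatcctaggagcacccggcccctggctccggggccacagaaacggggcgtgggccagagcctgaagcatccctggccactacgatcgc
Itgb7, chr15:102231886-102232185, minus strand: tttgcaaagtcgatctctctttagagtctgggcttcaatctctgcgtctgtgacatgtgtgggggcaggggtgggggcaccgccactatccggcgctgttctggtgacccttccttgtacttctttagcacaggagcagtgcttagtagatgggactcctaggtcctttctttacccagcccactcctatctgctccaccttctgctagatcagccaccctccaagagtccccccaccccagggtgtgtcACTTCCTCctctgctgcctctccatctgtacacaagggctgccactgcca
Motifs were searched by their letters on both strands. They were GAGGAAGT for PU.1, a factor of myeloid and lymphoid cells, TGTGGT for RUNX, GGGCGG for SP and TGANTCA for AP-1. The PU.1 letters lay on the other strand in the windows of both Itgav and Itgb7, and 3.20% of the 32851 windows in the table hold them. The RUNX letters lay once in the Itga4 window, on the other strand, and are in 16.8% of all windows. The SP letters lay once each in the Itgav and Itga4 windows and 3 times in the Itgb5 window and are in 35.7% of all windows. The Itgb1 window (chr8:128685404-128685703) held the SP letters once and no other match. The AP-1 letters, in 7.81% of all windows, were not in these 5 windows. The GC content of the windows of Itgav, Itgb5, Itga4 and Itgb7 was 67.3%, 65.7%, 64.3% and 56.3%, against a median of 52.7% over all windows, and no match overlapped another.

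Levels are in CPM, from the UMIs of a class in a library, scaled by the trimmed mean of M-values (TMM). Reads were taken at the 3′ end, so levels are compared between classes for 1 gene and not between genes. Where a class had at most 3 UMIs, the ratio of pooled UMIs is given, and the adjusted p beside it is that of the fitted mean of classes. Differences were tested on the UMI sums per class and library with edgeR's quasi-likelihood test, with the library as a block, and were called at a Benjamini-Hochberg adjusted p under 0.05 over all 9004 genes tested. All 9 members differed among the 9 classes, as did 74.8% of the genes tested, so differing among classes is not particular to integrins. The plot of levels by class shows that no class was high for all 9.

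**Figure D1:**
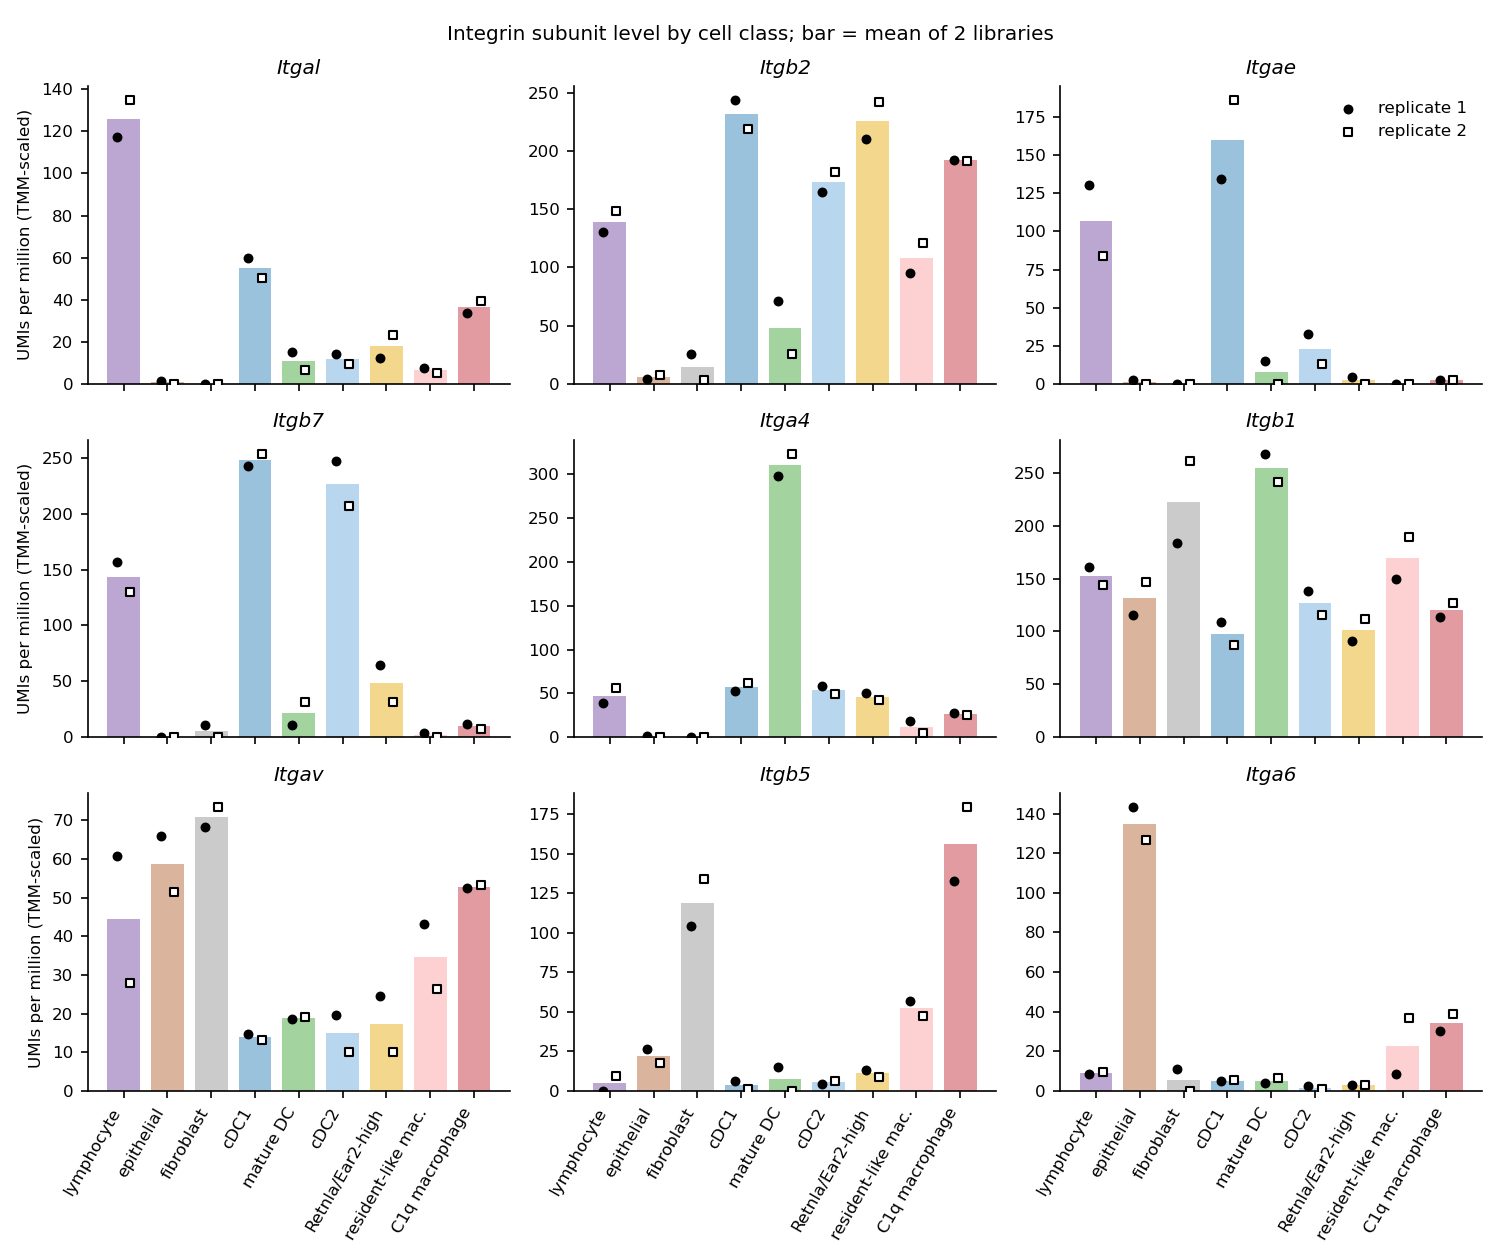
Level of the 9 integrin genes in each of the 9 classes, in CPM (UMIs per 1000000, TMM-scaled, linear axis from 0), with a bar at the mean of the 2 libraries, a circle for replicate 1 and a square for replicate 2. Itgb1 is present in all classes, whereas Itga4 stands highest in mature DCs, Itgb5 in C1q macrophages and fibroblasts, and Itga6 in epithelial cells.

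Of the 9 members, 3 were higher and 3 lower in dendritic cells than in macrophages, where 35.3% of the genes tested were called, 15% higher and 20.3% lower. For this comparison the mean over cDC1s, cDC2s and mature DCs was set against the mean over C1q and resident-like macrophages. Itgae, Itgb7 and Itga4 were higher in dendritic cells, Itgav, Itgb5 and Itga6 were lower, and Itgal, Itgb2 and Itgb1 did not pass the threshold. The median log2 difference of the 9 members was 0.07, beside -0.13 for all genes tested. In cDC1s against cDC2s, 2 members were higher and 0 lower, beside 12.4% of genes called, 4.88% higher and 7.55% lower, and the median of the members was 0.14 beside -0.04 for all genes. In mature DCs against cDC2s, 2 were higher and 2 lower, beside 12.6% called, 5.96% higher and 6.63% lower, with medians of 0.35 and -0.17; with the RLE size factors of DESeq2, 58.4% of all calls were higher in place of 47.4%. In Retnla/Ear2-high cells against C1q macrophages, 2 were higher and 4 lower, beside 16.8% called, 8.34% higher and 8.47% lower, with medians of -0.25 and -0.04. In resident-like against C1q macrophages, 0 were higher and 4 lower, beside 9.52% called, 4.75% higher and 4.76% lower, with medians of -1.32 (-0.90 with Itgae, at 0 UMIs in resident-like cells, at its bound) and -0.03. In lymphocytes against dendritic cells, 3 were higher and 1 lower, beside 14.1% called, 6.7% higher and 7.44% lower, with medians of 0.49 and -0.02; with RLE, 57% of all calls were higher in place of 47.4%. Against the 6 myeloid classes, epithelial cells had 2 members higher and 4 lower, beside 52.9% of genes called, 28.8% higher and 24.1% lower. The medians were -1.58 and 0.07, but -1.58 is the value of Itgae, whose fitted size could not be estimated (SE 98.38). With RLE, 63.8% of all calls were higher in place of 54.4%. Fibroblasts had 3 higher and 4 lower, beside 38.6% called, 21.2% higher and 17.4% lower, with medians of -2.70 and -0.03. With the 3 members at 0 UMIs at their bound the median of the members was -2.11, which is the bound of Itgae. With RLE, 67.3% of all calls were higher in place of 54.8%.

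**Figure D2:**
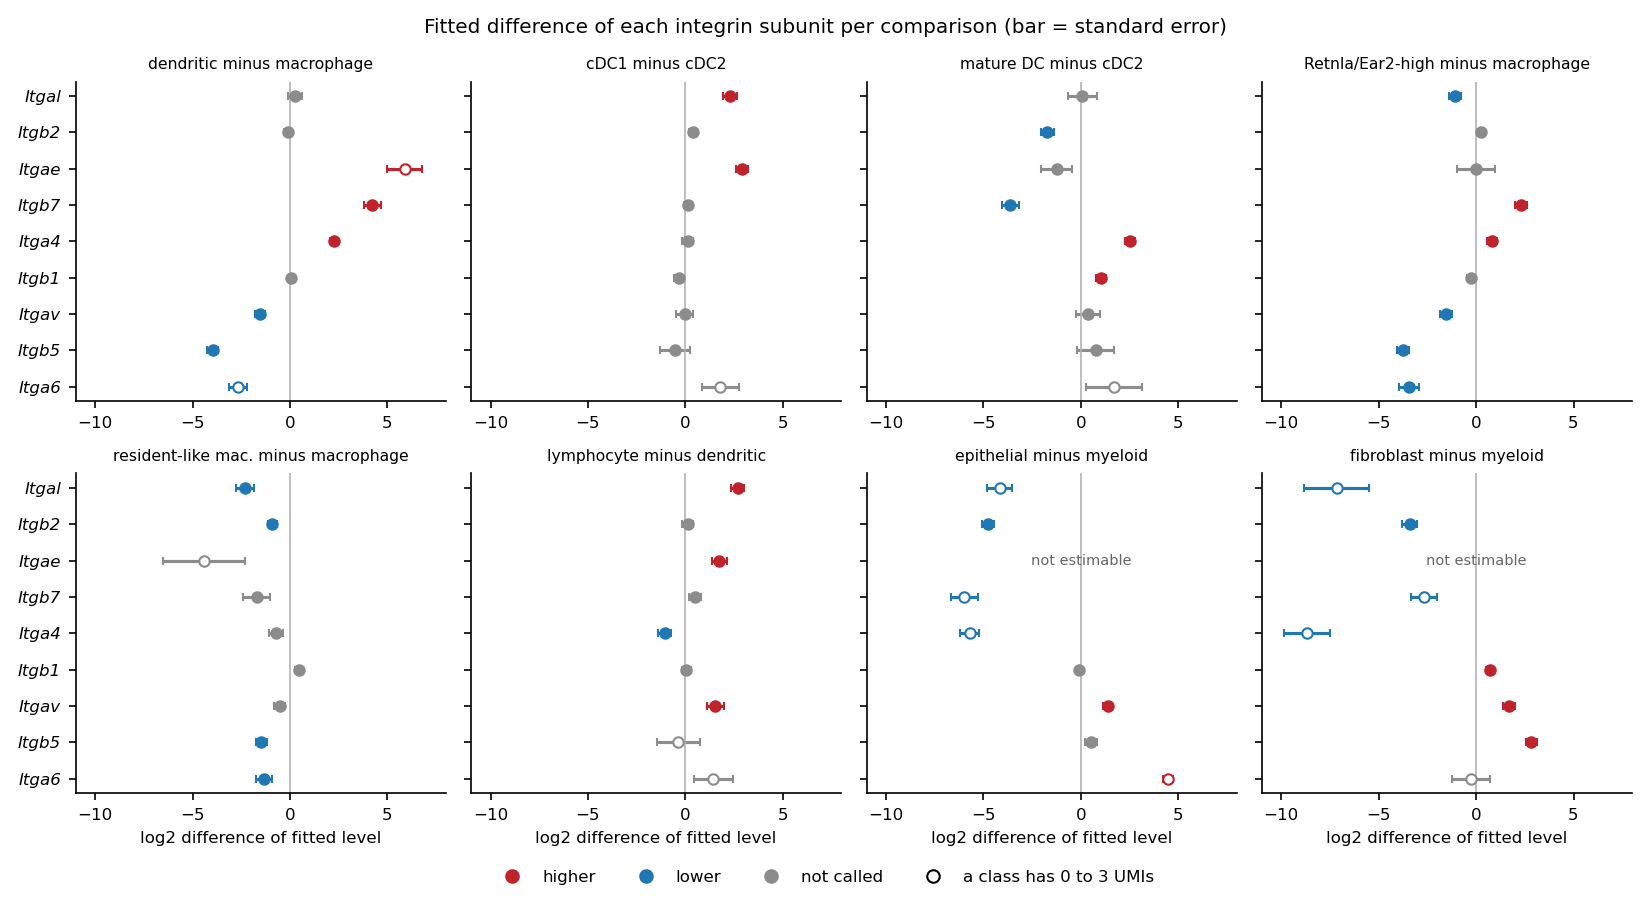
Log2 difference of each integrin gene in the 8 comparisons, with bars for the standard error of the edgeR fit. Red and blue points passed an adjusted p of 0.05 as higher or lower, grey points did not, and open points rest on a class with 0 to 3 UMIs, where the fitted size depends on the prior count and is no bound. Itga4 and Itgb7 lie right of 0 for dendritic cells against macrophages (2.25 and 4.23) and on opposite sides for mature DCs against cDC2s (2.54 and -3.61).

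The LFA-1 chains were distributed differently over the myeloid classes, with Itgb2 broad and Itgal highest in cDC1s and C1q macrophages. Itgal (7:127296260-127335138, plus strand, mm10) was at 117 and 135 CPM in lymphocytes of replicate 1 and replicate 2, at 59.8 and 50.2 in cDC1s and at 33.4 and 39.2 in C1q macrophages. It stood at 12.3 and 23.2 in Retnla/Ear2-high cells, at 13.9 and 9.29 in cDC2s, at 14.9 and 6.34 in mature DCs and at 7.36 and 5.26 in resident-like macrophages. Epithelial cells had 1.25 and 0 and fibroblasts had no UMI. The order was therefore lymphocytes, cDC1s and C1q macrophages, each with no overlap between the libraries of neighbours. Below them 4 classes overlapped each with the next, with epithelial cells and fibroblasts lowest.

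Itgal was higher in cDC1s than in cDC2s, by 2.29 on the log2 scale (SE 0.36, edgeR adjusted p = 2.54e-06), in both libraries. It was higher in lymphocytes than in dendritic cells by 2.69 (SE 0.34, edgeR adjusted p = 8.46e-09). Compared with C1q macrophages it was lower in resident-like macrophages, with a log2 difference of -2.32 (SE 0.45, edgeR adjusted p = 0.000181), and in Retnla/Ear2-high cells, with -1.09 (SE 0.33, edgeR adjusted p = 0.0139). The call in Retnla/Ear2-high cells was lost with DESeq2 (adjusted p = 0.0949) and with stricter marker limits (adjusted p = 0.274). Between dendritic cells and macrophages as a whole the difference of 0.27 (SE 0.37, edgeR adjusted p = 0.655) did not pass.

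Itgb2 (10:77530252-77565708, plus strand), the beta chain shared by LFA-1, CD11b and CD11c integrins, was spread more evenly over the leukocytes. It stood at 244 and 219 CPM in cDC1s of replicate 1 and replicate 2, 211 and 242 in Retnla/Ear2-high cells, 193 and 192 in C1q macrophages and 165 and 183 in cDC2s. Lymphocytes had 130 and 149, resident-like macrophages 95.7 and 121, mature DCs 70.7 and 25.4, fibroblasts 25.2 and 3.19 and epithelial cells 4.36 and 7.36. The first 2 classes overlapped, as did the last 2, and every other neighbour in this order was apart in both libraries.

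Mature DCs had less Itgb2 than cDC2s, with a log2 difference of -1.71 (SE 0.33, edgeR adjusted p = 0.000118). In replicate 1 and replicate 2 alone it was -1.20 and -2.75, and without the mature DC sum of replicate 2 the fit gave -1.26 (edgeR adjusted p = 0.0289). Resident-like macrophages had less Itgb2 than C1q macrophages by -0.90 on the log2 scale (SE 0.24, edgeR adjusted p = 0.00695), a call lost without the library block (adjusted p = 0.0826). Itgb2 did not pass between dendritic cells and macrophages (-0.12, SE 0.18, edgeR adjusted p = 0.668), nor between cDC1s and cDC2s (0.41, SE 0.21, edgeR adjusted p = 0.235).

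Itgae (11:73090583-73147446, plus strand), the CD103 chain, was detected mainly in cDC1s and lymphocytes. Its level was 134 and 186 CPM in cDC1s of replicate 1 and replicate 2 and 130 and 83.8 in lymphocytes. cDC2s had 32.5 and 13.2, mature DCs 14.9 and 0, Retnla/Ear2-high cells 4.09 and 0, C1q macrophages 2.42 and 2.34 and epithelial cells 2.49 and 0. Resident-like macrophages and fibroblasts had no UMI. cDC1s lay above lymphocytes and lymphocytes above cDC2s in both libraries, and each lower class overlapped with the next.

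Itgae was higher in cDC1s than in cDC2s by 2.91 on the log2 scale (SE 0.32, edgeR adjusted p = 3.02e-10), with 1.98 and 3.64 in replicate 1 and replicate 2 alone. Dendritic cells had 300 UMIs of Itgae and macrophages 18, all of those in C1q macrophages, a pooled ratio of 35.4 (95% counting interval 22.0 to 60.6, edgeR adjusted p = 3.55e-07). Lymphocytes were higher than the mean of the dendritic classes by 1.75 (SE 0.39, edgeR adjusted p = 0.000743), although cDC1s themselves were above lymphocytes. That call was lost with DESeq2 (adjusted p = 0.0555). Mature DCs and cDC2s differed by -1.23 (SE 0.80, edgeR adjusted p = 0.381), with only 4 UMIs in mature DCs. That difference passed with cells of at least 1000 UMIs (adjusted p = 0.0456) and with classes taken from clusters (adjusted p = 0.0208).

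Itgb7 (15:102215995-102231944, minus strand), which pairs with alpha E or alpha 4, marked both conventional dendritic classes and not only the one with Itgae. It stood at 243 and 254 CPM in cDC1s of replicate 1 and replicate 2, 247 and 207 in cDC2s and 157 and 130 in lymphocytes. Retnla/Ear2-high cells had 64.4 and 31.9, mature DCs 11.2 and 31.7, C1q macrophages 12.1 and 7.31, fibroblasts 10.8 and 0, resident-like macrophages 3.68 and 0 and epithelial cells 0.623 and 0. cDC1s and cDC2s overlapped, lymphocytes lay below both and above Retnla/Ear2-high cells, and the other classes overlapped with a neighbour.

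Between cDC1s and cDC2s Itgb7 differed by 0.14 on the log2 scale (SE 0.21, edgeR adjusted p = 0.779), a difference that did not pass. Dendritic cells were above macrophages by 4.23 (SE 0.45, edgeR adjusted p = 1.23e-11), with 3.38 and 4.82 in replicate 1 and replicate 2 alone. Within the dendritic cells, mature DCs were below cDC2s with a log2 difference of -3.61 (SE 0.42, edgeR adjusted p = 1.59e-09), with -4.24 and -2.63 in replicate 1 and replicate 2 alone. Without the mature DC sum of replicate 2 the fit gave -4.50 (edgeR adjusted p = 8.93e-08). Retnla/Ear2-high cells were above C1q macrophages by 2.31 (SE 0.30, edgeR adjusted p = 2.21e-08). The summed cDC2 markers were 691 and 737 CPM in Retnla/Ear2-high cells, against 3622 and 4122 in cDC2s, and their part in that difference was not tested. In the cluster of 253 cells led by Lyz1, Retnla and Ear2, which holds 135 of the 252 gated cells, Itgb7 was at 26.6 CPM (pooled, not TMM-scaled). Lymphocytes and dendritic cells differed by 0.49 (SE 0.30, edgeR adjusted p = 0.313).

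Itga4 (2:79255426-79333123, plus strand), the alpha 4 chain, was highest in mature DCs, the dendritic class with the least Itgb7. Its level was 298 and 323 CPM in mature DCs of replicate 1 and replicate 2. The classes next in order were cDC1s with 52.5 and 62.1, cDC2s with 58.0 and 48.8, lymphocytes with 39.1 and 55.8 and Retnla/Ear2-high cells with 50.1 and 42.1, each of which overlapped with the next. C1q macrophages had 27.1 and 25.7, resident-like macrophages 18.4 and 5.26, epithelial cells 1.25 and 0, and fibroblasts no UMI.

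Itga4 was higher in mature DCs than in cDC2s by 2.54 on the log2 scale (SE 0.26, edgeR adjusted p = 2.79e-11), with 2.32 and 2.68 in replicate 1 and replicate 2 alone. Dendritic cells were above macrophages by 2.25 (SE 0.20, edgeR adjusted p = 7.43e-14), with 2.03 and 2.84 in replicate 1 and replicate 2 alone. cDC1s differed from cDC2s by 0.11, which did not pass. Lymphocytes were below the mean of the dendritic classes by -1.05 (SE 0.33, edgeR adjusted p = 0.0222), although their levels overlapped with those of cDC1s and of cDC2s. That call was lost with DESeq2 (adjusted p = 0.0853). Retnla/Ear2-high cells were above C1q macrophages by 0.81 (SE 0.26, edgeR adjusted p = 0.0235), a call lost under 6 of the alternatives tried, in which the adjusted p lay between 0.0586 and 0.0890.

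Itgb1 (8:128685654-128733200, plus strand), the most widely shared beta chain, was present in every class, with class means between 97.9 and 254 CPM. It was at 268 and 241 CPM in mature DCs of replicate 1 and replicate 2, 183 and 262 in fibroblasts, 150 and 190 in resident-like macrophages, 161 and 144 in lymphocytes and 115 and 147 in epithelial cells. cDC2s had 138 and 115, C1q macrophages 114 and 127, Retnla/Ear2-high cells 91.0 and 112 and cDC1s 109 and 87.2. In this order each class overlapped with the next except C1q macrophages and Retnla/Ear2-high cells.

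Itgb1 was higher in mature DCs than in cDC2s by 1.03 on the log2 scale (SE 0.24, edgeR adjusted p = 0.00119), alongside Itga4. It was higher in fibroblasts than in the mean of the myeloid classes by 0.71 (SE 0.18, edgeR adjusted p = 0.00133), although not above mature DCs (means of 222.5 and 254.4 CPM). It did not pass between dendritic cells and macrophages (0.07, SE 0.14, edgeR adjusted p = 0.785), nor between epithelial and myeloid cells (-0.07, SE 0.16, edgeR adjusted p = 0.750). Resident-like and C1q macrophages differed by 0.45 (SE 0.21, edgeR adjusted p = 0.220).

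**Figure D3:**
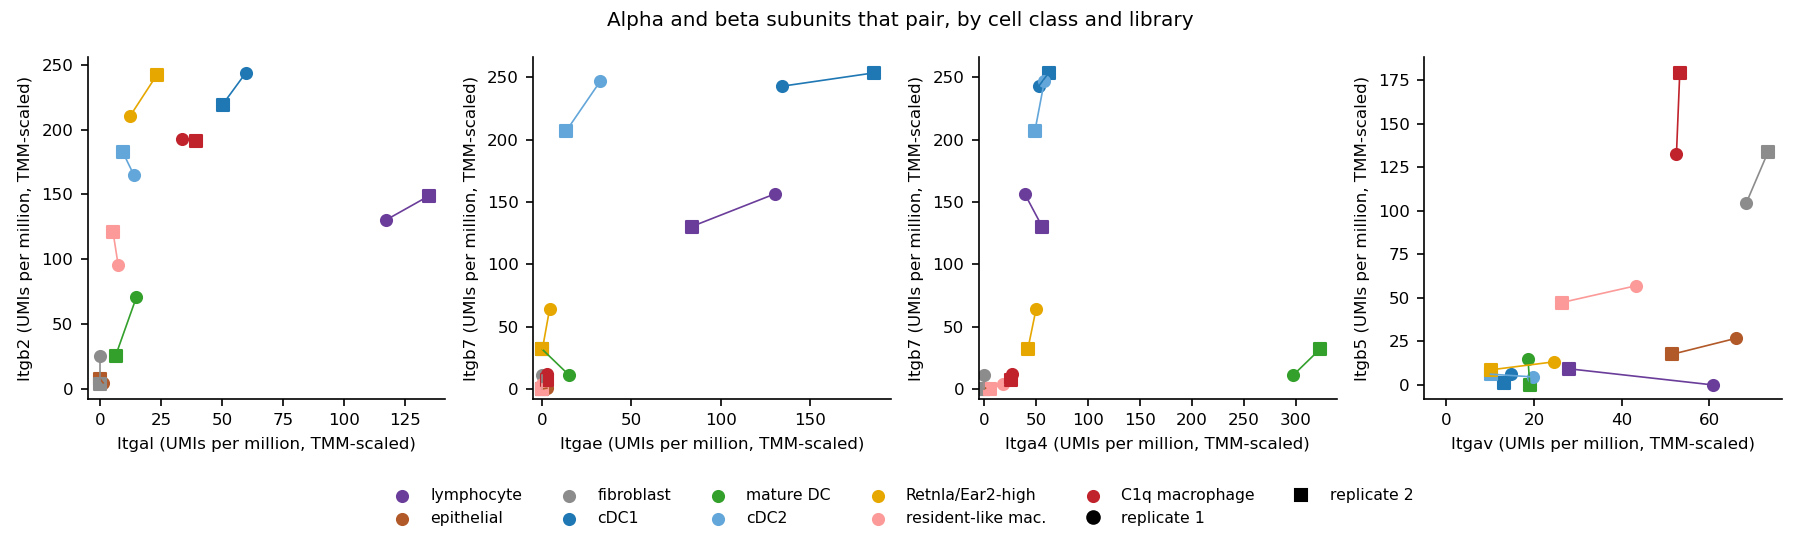
Level of a beta chain against that of an alpha chain it pairs with, in CPM on linear axes, with a circle for replicate 1 and a square for replicate 2 of each class, joined by a line; the panels show Itgb2 with Itgal, Itgb7 with Itgae, Itgb7 with Itga4 and Itgb5 with Itgav. Mature DCs stand far right and low in the Itga4 panel (298 and 323 CPM of Itga4, 11.2 and 31.7 of Itgb7), and cDC1s stand high for both chains in the Itgae panel.

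Itgav (2:83724397-83806916, plus strand), the alpha v chain, was higher in stromal, epithelial and macrophage classes than in dendritic ones. It was at 68.3 and 73.4 CPM in fibroblasts of replicate 1 and replicate 2, 66.0 and 51.5 in epithelial cells, 52.5 and 53.2 in C1q macrophages, 60.9 and 27.9 in lymphocytes and 43.2 and 26.3 in resident-like macrophages. Mature DCs had 18.6 and 19.0, Retnla/Ear2-high cells 24.5 and 10.2, cDC2s 19.7 and 10.1 and cDC1s 14.7 and 13.2. Fibroblasts lay above the next class in both libraries, resident-like macrophages lay above mature DCs, and each other class overlapped with the next in this order.

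Dendritic cells had less Itgav than macrophages, with a log2 difference of -1.53 (SE 0.25, edgeR adjusted p = 1.67e-06). Retnla/Ear2-high cells had less than C1q macrophages, with -1.56 (SE 0.31, edgeR adjusted p = 8.49e-05), and -1.04 and -2.18 in replicate 1 and replicate 2 alone. Epithelial cells were above the mean of the myeloid classes by 1.38 (SE 0.22, edgeR adjusted p = 3.92e-07) and fibroblasts by 1.67 (SE 0.31, edgeR adjusted p = 1.20e-05). The epithelial level (66.0 and 51.5 CPM) nevertheless overlapped with that of C1q macrophages (52.5 and 53.2). Lymphocytes were above dendritic cells by 1.53 (SE 0.44, edgeR adjusted p = 0.0118), on 20 UMIs, with 1.69 and 0.93 in replicate 1 and replicate 2 alone. Resident-like and C1q macrophages differed by -0.52 (edgeR adjusted p = 0.335), which did not pass.

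Itgb5 (16:33829665-33949338, plus strand), an alpha v partner, was higher in both macrophage classes than in every other leukocyte class in both libraries. C1q macrophages had 133 and 180 CPM in replicate 1 and replicate 2, fibroblasts 104 and 134, resident-like macrophages 57.0 and 47.4 and epithelial cells 26.8 and 17.7. Retnla/Ear2-high cells had 13.3 and 8.70, mature DCs 14.9 and 0, cDC2s 4.64 and 6.19, lymphocytes 0 and 9.31 and cDC1s 6.10 and 1.32. C1q macrophages and fibroblasts overlapped, the next 2 classes stood apart in turn, and each of the remaining 5 overlapped with the next.

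Dendritic cells were below macrophages in Itgb5 with a log2 difference of -3.97 (SE 0.30, edgeR adjusted p = 4.21e-17), with -3.20 and -4.64 in replicate 1 and replicate 2 alone. Retnla/Ear2-high cells were below C1q macrophages with -3.75 (SE 0.32, edgeR adjusted p = 7.12e-14), with -3.14 and -4.08 in replicate 1 and replicate 2 alone. Resident-like macrophages were also below C1q macrophages, with -1.47 (SE 0.27, edgeR adjusted p = 6.52e-05). Fibroblasts were above the mean of the myeloid classes by 2.84 (SE 0.30, edgeR adjusted p = 8.32e-12), although not above C1q macrophages. Epithelial cells differed from the mean of the myeloid classes by 0.53 (SE 0.31, edgeR adjusted p = 0.153), which did not pass. That mean weights the 6 classes equally, and with all UMIs pooled epithelial cells were lower, with a ratio of 0.277 (95% counting interval 0.207 to 0.362), since C1q macrophages hold most of the myeloid UMIs.

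Itga6 (2:71745616-71858416, plus strand), the laminin-binding alpha 6 chain, was highest in epithelial cells with 143 and 127 CPM in replicate 1 and replicate 2. Among the immune classes it was detected mainly in macrophages, at 29.98 and 38.6 in C1q macrophages and at 8.28 and 36.9 in resident-like macrophages. Lymphocytes had 8.69 and 9.31, fibroblasts 10.8 and 0, cDC1s 4.88 and 5.29, mature DCs 3.72 and 6.34, Retnla/Ear2-high cells 3.07 and 2.90 and cDC2s 2.32 and 0.774. Epithelial cells stood apart from every other class in both libraries.

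Epithelial cells had 316 UMIs of Itga6 and the 6 myeloid classes 290, a pooled ratio of 6.99 (95% counting interval 5.94 to 8.22). The fitted difference from the equally weighted myeloid classes was 4.47 on the log2 scale (edgeR adjusted p = 4.52e-23), and it includes 2 classes with at most 3 UMIs. Dendritic cells had 13 UMIs and macrophages 272, a pooled ratio of 0.102 (95% counting interval 0.0534 to 0.177, edgeR adjusted p = 3.17e-06). Retnla/Ear2-high cells were below C1q macrophages with a log2 difference of -3.44 (SE 0.51, edgeR adjusted p = 4.74e-07), on 5 UMIs. Resident-like macrophages were below C1q macrophages with -1.32 (SE 0.42, edgeR adjusted p = 0.0324), but replicate 1 and replicate 2 alone gave -1.64 and -0.06. Without the 30 resident-like cells of replicate 2 the fit gave -2.02 (edgeR adjusted p = 0.00471), and the call was lost with DESeq2 (adjusted p = 0.534) and without the library block (adjusted p = 0.125). The summed epithelial markers were 34240 and 34830 CPM in epithelial cells, against 210 to 683 in the other classes.

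In epithelial cells and fibroblasts the leukocyte subunits were at or near 0. Epithelial cells had less Itgb2 than the myeloid classes, with a log2 difference of -4.75 (SE 0.32, edgeR adjusted p = 4.87e-19) and -4.57 and -3.87 in replicate 1 and replicate 2 alone. They had 2 UMIs of Itgal, a pooled ratio of 0.0302 (95% counting interval 0.00364 to 0.110, edgeR adjusted p = 1.31e-07), and 2 of Itga4, a ratio of 0.0203 (0.00245 to 0.0735, edgeR adjusted p = 5.69e-15). They had 1 UMI of Itgb7, a ratio of 0.00615 (0.000156 to 0.0343, edgeR adjusted p = 1.22e-10). Fibroblasts were below the myeloid classes in Itgb2 with -3.41 (SE 0.39, edgeR adjusted p = 7.92e-11), and replicate 1 and replicate 2 alone gave -2.48 and -4.72. They had no UMI of Itga4 or Itgal, at least 8.51-fold and at least 5.72-fold lower than in the myeloid classes when set at a floor of 3 UMIs over both libraries (edgeR adjusted p = 1.99e-08 for Itga4 and 0.000406 for Itgal). They had 3 UMIs of Itgb7, a ratio of 0.0713 (0.0147 to 0.209, edgeR adjusted p = 0.000863). Of Itgae, epithelial cells had 4 UMIs and the myeloid classes 322, a ratio of 0.0797 (0.0216 to 0.206), and fibroblasts had none, at least 4.33-fold lower. Neither Itgae difference was called, and its fitted size could not be estimated.

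The transcript of CD11c itself was measured in lymphocytes as well as in myeloid classes. Itgax (7:128129547-128150657, plus strand) was at 144 and 163 CPM in C1q macrophages of replicate 1 and replicate 2, 129 and 159 in cDC2s, 113 and 102 in lymphocytes, 78.7 and 92.8 in Retnla/Ear2-high cells and 103 and 60.8 in cDC1s. Mature DCs had 55.8 and 63.4, resident-like macrophages 31.3 and 0, fibroblasts 10.8 and 3.19 and epithelial cells 6.23 and 1.47. The cells were selected on its protein, so its levels between classes are a description of what the selection kept.

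Shares of cells with a UMI were taken after thinning each cell to 1900 UMIs, since depth differed between classes. Itgb7 was seen in 0 of 142 epithelial cells (upper limit 2.6%, median depth 8842 UMIs), 34.6% of cDC1s (exact 95% interval 27.7 to 42.1, 9074 UMIs), 4.1% of mature DCs (0.8 to 11.4, 6334 UMIs) and 29.0% of cDC2s (24.3 to 34.0, 6607 UMIs). Before thinning these shares were 0.7%, 78.8%, 8.1% and 67.6% in the same order. Itga4 was seen in 0 of 51 fibroblasts (upper limit 7.0%, 9156 UMIs), 36.5% of mature DCs (25.6 to 48.5) and 10.2% of cDC2s (7.3 to 13.9), and before thinning in 0%, 77.0% and 22.7%. Cells with a UMI of Itgb7 were thus few among mature DCs, and cells with Itga4 were most frequent there.

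Itgae was seen in 14.6% of lymphocytes (exact 95% interval 8.0 to 23.7, median depth 3697 UMIs), 20.7% of cDC1s (14.99 to 27.3) and 0.3% of C1q macrophages (0.1 to 0.7, 6122 UMIs). Before thinning the shares were 23.6%, 60.9% and 0.9%. Itgb5 was seen in 0.6% of cDC1s (0.0 to 3.1), 8.9% of resident-like macrophages (5.7 to 13.2, 4985 UMIs) and 22.9% of C1q macrophages (20.6 to 25.5). Before thinning those were 3.4%, 21.1% and 52.7%. Itgae was thus seen chiefly in lymphocytes and cDC1s, and Itgb5, among the leukocyte classes, in both macrophage classes. Outside the leukocytes, Itgb5 was seen in 15.7% of fibroblasts (7.0 to 28.6) and 7.0% of epithelial cells (3.4 to 12.6), and before thinning in 60.8% and 26.1%. Itga6 was seen in 28.2% of epithelial cells (20.9 to 36.3) and 5.1% of C1q macrophages (3.9 to 6.5), against 0.3% of cDC2s (0.0 to 1.6), and before thinning in 71.1%, 17.2% and 0.9%. Itgal was seen in 28.1% of lymphocytes (19.1 to 38.6), against 0 of 51 fibroblasts (upper limit 7.0%), and before thinning in 43.8% and 0%. All these intervals cover counting error only.

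**Figure D4:**
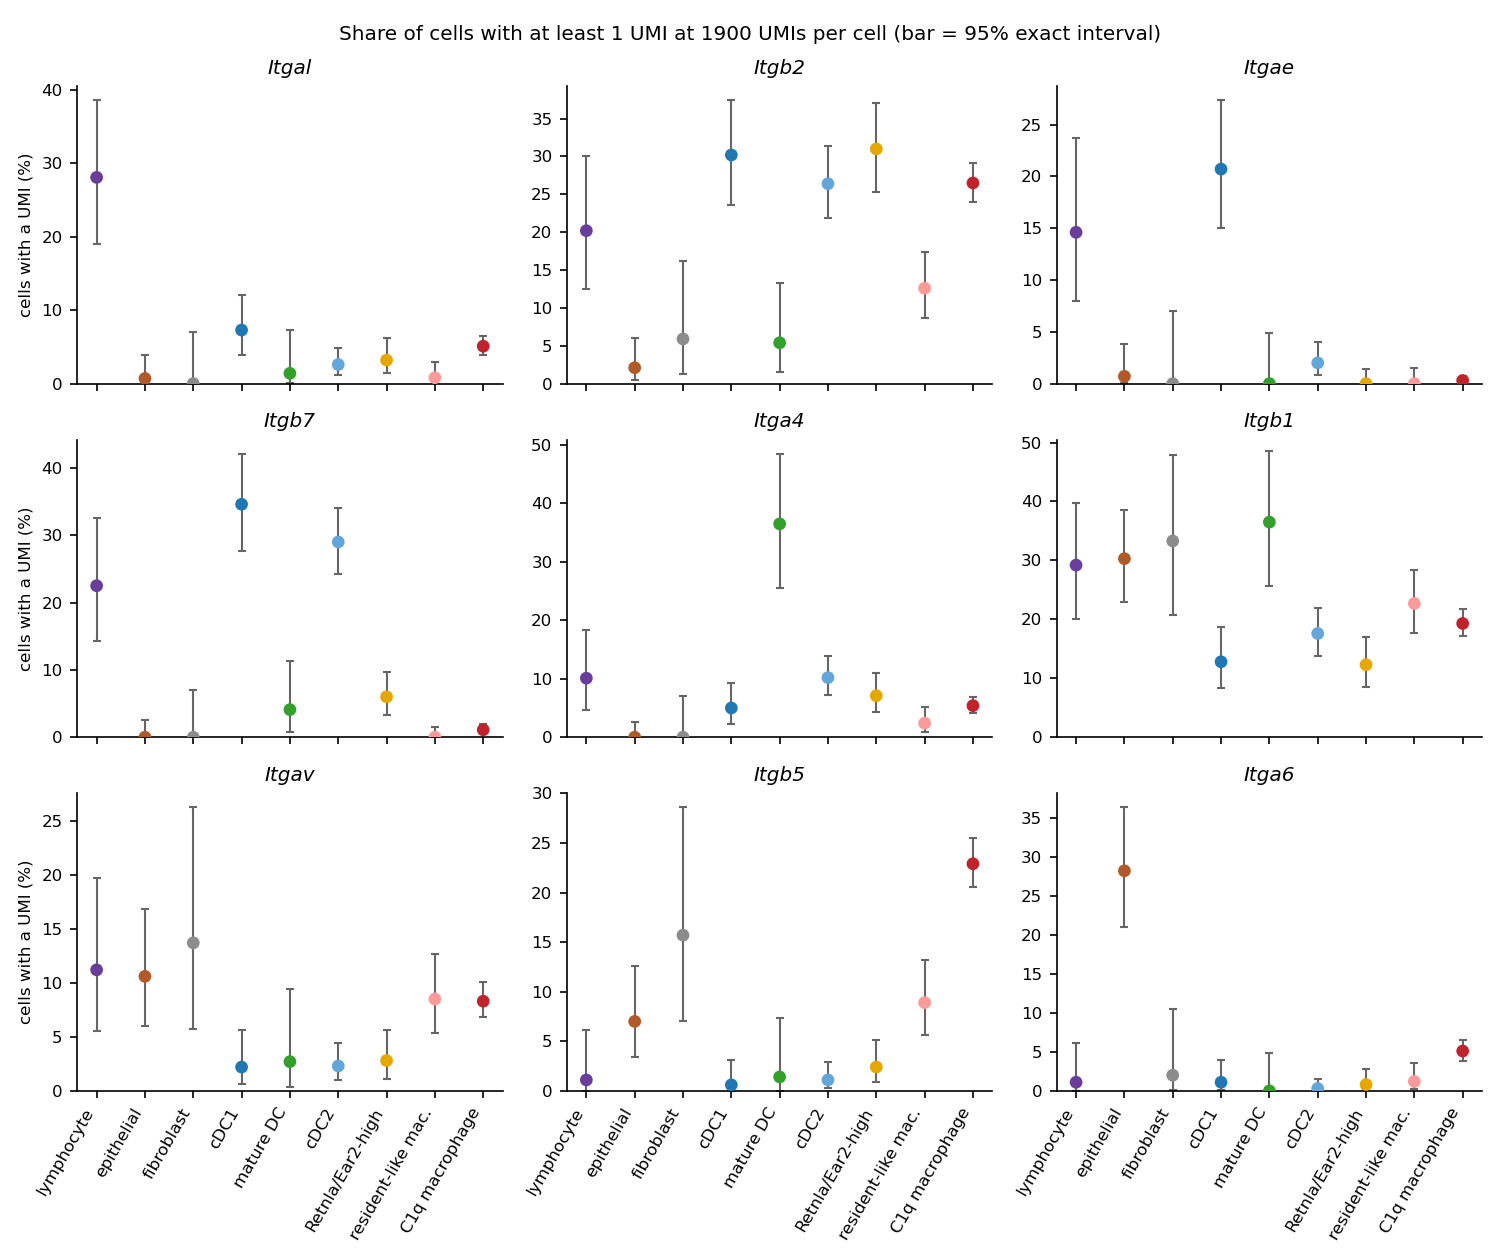
Percent of cells with at least 1 UMI of each integrin gene after thinning to 1900 UMIs per cell, by class, with exact 95% intervals as bars. The intervals of Itga4 in mature DCs (36.5%) and of Itga6 in epithelial cells (28.2%) lie above those of every other class drawn.

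Free RNA was estimated at 0.97% to 3.46% of the UMIs of each compared class and library, other than epithelial cells with 7.14% and 3.45% in replicate 1 and replicate 2. Barcodes with at most 50 UMIs held Itgb7 at 22.1 and 36.8 CPM in replicate 1 and replicate 2, Itgae at 7.86 and 13.95, Itga4 at 31.9 and 40.7, Itgb5 at 36.3 and 48.0 and Itga6 at 23.1 and 26.8. Subtracting the expected free RNA changed no call among the 72 member comparisons.

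How often both chains of a receptor were seen in the same cell differed by pair and class. Of the 109 cDC1s with an Itgae UMI, 80.7% also had Itgb7, against 75.7% of the other cDC1s, with median depths of 10147 and 8189 UMIs. Of the 57 mature DCs with Itga4, 73.7% had Itgb1 and 8.77% had Itgb7, against 52.9% and 5.88% of the 17 other mature DCs, with median depths of 6356 and 5066 UMIs. Of the 21 lymphocytes with Itgae, 61.9% had Itgb7, against 30.9% of the other lymphocytes, with median depths of 4938 and 3455 UMIs. Some pairs went the other way. Of the 17 resident-like macrophages with Itga4, 29.4% had Itgb1, against 51.3% of the others. Of the 15 lymphocytes with Itga4, 33.3% had Itgb7, against 39.2% of the others. Cells of a library are not replicates, and deeper cells show more of every gene, so these shares are given with no test.

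Over the 18 class sums the partner chains followed each other unevenly. Pearson's r of the log2 level was 0.80 for Itgae and Itgb7, 0.79 for Itgal and Itgb2, 0.66 for Itga4 and Itgb7 and 0.60 for Itgav and Itgb5. It was -0.06 for Itga4 and Itgb1 and -0.13 for Itga6 and Itgb1. These are descriptions over sums that share 2 libraries and differ in depth. Among 6513 other genes, the 3 with the most similar pattern over the same sums were Hcls1 (r = 0.957), Ncf4 (0.956) and Cyth4 (0.956) for Itgb2. For Itga4 they were Myo1g (0.959), Slc25a3 (0.957) and St8sia4 (0.955), and for Itgb5 they were Zfhx3 (0.911), Olfml3 (0.907) and Hebp1 (0.898). For Itgb7 they were Eif3e (0.933), Oaz1 (0.928) and Gpr171 (0.924), for Itgae Npm1 (0.923), Tbc1d10c (0.918) and Lsm6 (0.882), and for Itgal Rfc2 (0.933), Traf3ip3 (0.925) and Hhex (0.914). The best match was weaker for Itga6 (Cracr2b, 0.868), Itgb1 (Zfp36l1, 0.860) and Itgav (Luzp1, 0.848).

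The clusters that hold C1q macrophages were not uniform in these genes. Cells were clustered without the 9 members and the integrin lists, and 5 clusters of at least 50 cells met the macrophage markers. Itgb5 was at 197 CPM (both libraries pooled) in the cluster led by Olfml3 and Zmynd15, 159 in that led by Gpnmb and Spp1, 156 in that led by Hspa1a and Hsph1, 147 in that led by Cd207 and Il1a and 114 in that led by Il10 and Cd93. Itga6 was at 51.5 in the Gpnmb/Spp1 cluster and 16.9 in the Cd207/Il1a cluster, and Itgal at 51.6 in the Olfml3/Zmynd15 cluster and 12.9 in the Il10/Cd93 cluster. Itgb1 was at 150 in the Il10/Cd93 cluster, where Itgal was lowest, and at 59.3 in the Cd207/Il1a cluster, where Itga6 was lowest. Of the 1168 C1q macrophages, 653 lay in macrophage clusters and 436 in clusters that met no class name. In the 4 of these that hold nearly all of the 436, Itgb5 was lower than in the 5 clusters above, at 90.7 CPM in the cluster led by Sirpb1c and Id1, 87.3 in that led by Ccl12 and Maf, 49.9 in that led by Il10 and Cxcl2 and 104 in that led by Cxcl9 and Dnase1l3. All levels are over every cell of a cluster. In the same order, only 148 of 254, 169 of 214, 85 of 139 and 32 of 59 cells of these 4 were C1q macrophages. The part of the other cells in the lower Itgb5 was not tested. The Il10/Cxcl2 cluster had 128 and 11 cells in replicate 1 and replicate 2, and the Cxcl9/Dnase1l3 cluster 55 and 4. The cluster levels are described with no test, because genes that built the clusters may move with the members.

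**Figure D5:**
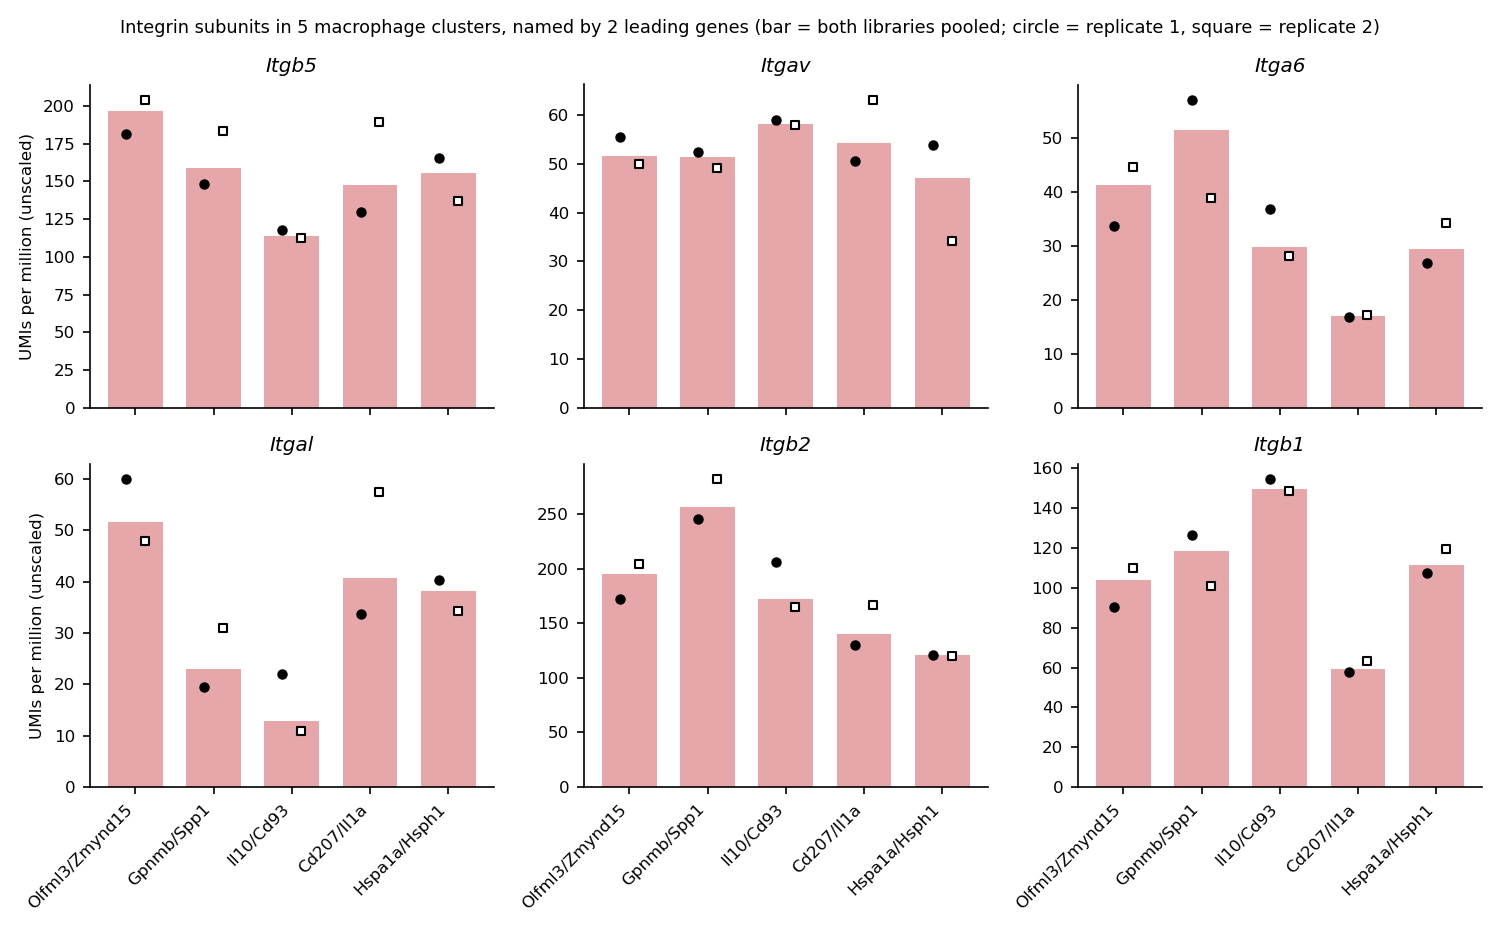
Level of 6 integrin genes in the 5 macrophage clusters, in CPM not TMM-scaled, with a bar for both libraries pooled, a circle for replicate 1 and a square for replicate 2. Itgb5 lies between 114 and 197 CPM in the 5 clusters drawn, whereas Itga6 runs between 16.9 and 51.5 and Itgal between 12.9 and 51.6.

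The other integrin subunits were examined as a list of 17 symbols, of which 10 passed the filter on low counts. Itgax, the gene of the selection, is left out of the counts, which leaves 9 genes. In dendritic cells against macrophages 0 rose and 3 fell, beside 15% higher and 20.3% lower of all genes, with medians of 0.06 and -0.13. Itgam, the CD11b chain, averaged 29.4 and 40.5 CPM over the dendritic classes of replicate 1 and replicate 2, against 131 and 173 over the macrophage classes. In cDC1s against cDC2s 1 rose and 1 fell, beside 4.88% higher and 7.55% lower of all genes. The one that fell was Itgam, with 9.77 and 9.25 in cDC1s, against 67.2 and 112 in cDC2s. In mature DCs against cDC2s 0 rose and 1 fell, beside 5.96% and 6.63%, again Itgam, with 11.2 and 0 in mature DCs. In Retnla/Ear2-high cells against C1q macrophages 1 rose and 1 fell, beside 8.34% and 8.47%. Itga9, which binds tenascin and osteopontin, was at 0 in Retnla/Ear2-high cells and at 21.8 and 16.7 in C1q macrophages, at least 10.8-fold lower. In resident-like against C1q macrophages 0 rose and 0 fell, beside 4.75% and 4.76%, and in lymphocytes against dendritic cells 1 rose and 0 fell, beside 6.7% and 7.44%. In these 5 comparisons 3 to 5 of the 9 genes had no UMI in a group, and the median was 0.00 in each with those genes at their bound.

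Epithelial cells against myeloid cells had 5 of these 9 genes higher and 2 lower, beside 28.8% and 24.1% of all genes, with medians of 3.43 and 0.07. Itgb4, the hemidesmosome partner of alpha 6, was at 36.7 and 26.5 in epithelial cells, against 0.508 and 0.398 in the myeloid classes. In fibroblasts 4 rose and 1 fell, beside 21.2% and 17.4%, with medians of 2.91 and -0.03. Itga2b, the platelet alpha chain, was at 32.4 and 191 in fibroblasts, against 0.244 and 1.36 in the myeloid classes, and Itgb3, its partner, was at 21.6 and 47.9, against 0.274 and 0.790. None of the 7 erythroid and platelet markers had a UMI in fibroblasts, but their sum was at most 12.7 CPM in every other compared class too. The source of the Itga2b UMIs was not tested.

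The activation and adhesion machinery comprised 27 genes, such as talin, kindlins and the proteins that bind them. In dendritic cells against macrophages 4 rose and 7 fell, beside 15% higher and 20.3% lower of all genes, with a median of -0.40 beside -0.13, or -0.16 with the genes at 0 in a group set at their bound. Cytip, which limits LFA-1 adhesion through cytohesin, averaged 972 and 1160 CPM in dendritic cells, against 124 and 176 in macrophages. Fyb, an adaptor that links receptors to integrin activation, averaged 34.0 and 21.4 in dendritic cells, against 272 and 255 in macrophages. In cDC1s against cDC2s 1 rose and 4 fell, beside 4.88% and 7.55%, with a median of -0.23 (-0.21 at bound) beside -0.04. In mature DCs against cDC2s 0 rose and 4 fell, beside 5.96% and 6.63%, with a median of -0.25 (-0.11 at bound) beside -0.17. Fermt3, the leukocyte kindlin that activates integrins, was among those that fell, with 33.5 and 38.0 in mature DCs, against 77.7 and 96.7 in cDC2s. In resident-like against C1q macrophages 1 rose and 4 fell, beside 4.75% and 4.76%, with a median of -0.08 (0.00 at bound) beside -0.03. Cytip fell there, with 46.9 and 68.4 in resident-like macrophages, against 200 and 284 in C1q macrophages. In Retnla/Ear2-high cells against C1q macrophages 4 rose and 3 fell, beside 8.34% and 8.47%, with a median of 0.13 beside -0.04. Vcl, which ties integrins to actin, was at 28.6 and 30.5 in Retnla/Ear2-high cells, against 5.80 and 4.39 in C1q macrophages. In lymphocytes against dendritic cells 2 rose and 3 fell, beside 6.7% and 7.44%, with a median of -0.43 (-0.29 at bound) beside -0.02. In epithelial cells against myeloid cells 7 rose and 19 fell, beside 28.8% and 24.1%, with a median of -1.36 beside 0.07. Fermt2, the widely expressed kindlin, was at 126 and 109 in epithelial cells, against 1.20 and 0.468 in the myeloid classes. In fibroblasts 6 rose and 13 fell, beside 21.2% and 17.4%, with a median of -0.67 beside -0.03.

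The list of ligands held 25 genes, of which 19 were tested. In epithelial cells against myeloid cells 13 rose and 4 fell, beside 28.8% higher and 24.1% lower of all genes, with a median of 2.00 beside 0.07. In fibroblasts 12 rose and 2 fell, beside 21.2% and 17.4%, with a median of 3.19 beside -0.03. In lymphocytes against dendritic cells 4 rose and 1 fell, beside 6.7% and 7.44%, and in mature DCs against cDC2s 2 rose and 3 fell, beside 5.96% and 6.63%. In resident-like against C1q macrophages 0 rose and 3 fell, beside 4.75% and 4.76%. In dendritic cells against macrophages 0 rose and 5 fell, beside 15% and 20.3%, with a median of -0.11 (0.00 at bound) beside -0.13. Vcam1, the ligand of alpha 4 beta 1, averaged 15.1 and 10.3 in dendritic cells, against 98.5 and 116 in macrophages. Spp1, the alpha v ligand osteopontin, averaged 116 and 58.4 in dendritic cells, against 2697 and 1429 in macrophages. In Retnla/Ear2-high cells against C1q macrophages 2 ligands rose and 4 fell, beside 8.34% and 8.47%. Fn1, fibronectin, was at 1510 and 1833 in Retnla/Ear2-high cells, against 108 and 150 in C1q macrophages. In cDC1s against cDC2s 0 ligands rose and 2 fell, beside 4.88% and 7.55%. Cdh1, E-cadherin, was one of them, with 3.66 and 1.32 in cDC1s, against 18.6 and 29.4 in cDC2s.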

How the data were processed

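The deposited values are raw UMI counts for every gene and barcode of 2 libraries, made with Cell Ranger 2.2.0 on build mm10, per the submitters' processing notes, with totals of 17369071 and 13317214 UMIs. Cells were called at 2112 and 1905 UMIs (the 99th percentile of the top 3000 barcodes divided by 10), with at least 200 genes and at most 10% mitochondrial UMIs. As doublets, the 30 and 12 top-scoring cells were removed, and 2 barcodes were shared between the cells of the libraries.

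A cell's score for a class was the mean standardised log expression of the class's markers, and the limits were set on the make-up of the classes. For mature DCs, lymphocytes, epithelial cells and fibroblasts the limit was 1.5 and 2 times the next score. It was 0.3 for macrophages, with 0.6 for resident-like ones, and, below a macrophage score of 0, 0.6 for cDC1s, 0.5 for cDC2s and 0.2 for the monocyte gate. The 498 cells that met no gate were left out, as were 21 endothelial, 22 neutrophil, 16 B and 5 ambiguous cells. The counts of a class in a library were added up (18 sums). edgeR 4.0.16 (R 4.3.3) was fitted with the library as a block to 9122 genes past filterByExpr, and p-values were adjusted over the 9004 that are not markers. Whether same-numbered sums pair comes from the capture: all classes of a library share it. The floor for a gene at 0 is 3 UMIs. Scripts were checked on simulated data. Clusters used Leiden at resolution 1.5 (scanpy 1.11.5, Python 3.11.15).

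The 9 members, 3 gene lists and markers were chosen with earlier results of these data known. By the rule, up to 2 called genes of largest fold per list and comparison and up to 3 genes of most similar pattern per member could be named beside the members; the text names some of these, and the others are not reported here. Gene positions are from GENCODE M21 on GRCm38, the assembly of mm10. Alternatives were RLE size factors, DESeq2 1.42.0, no filter, no library block, 1 library alone, cells of at least 1000 UMIs, no doublet removal, classes from clusters, stricter limits and subtraction of free RNA.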

Additional observations from a re-analysis of the deposited data

Results flagged for a closer look

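Signal was found in classes that were too small to compare. The 21 cells of the endothelial gate held Itgb1 at 208 CPM, Itga6 at 160 and Itgb2 at 87.8, pooled over both libraries and not TMM-scaled. The 22 cells of the neutrophil gate held Itgb2 at 317 CPM on the same scale. There are no control samples, and each value stands above the level that a count of 3 UMIs would give in its class. These classes had fewer than 20 cells in each library, so they entered no comparison. Of the 21 endothelial-gated cells, 15 lay in the endothelial cluster and 6 in other clusters. In that cluster of 22 cells Itgb2 was lower, at 39.2 CPM, with no UMI in replicate 2, whereas Itgb1 was at 282 CPM and Itga6 at 172 CPM. The expected share of free RNA in endothelial cells of replicate 1 was 21.4%, and its part in the Itgb2 level was not tested.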

How the results depend on the processing

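Of 72 member comparisons, 39 were called, and 64 kept their side of the threshold under every alternative other than leaving out a replicate. None reversed. The 8 that changed were Itga4 and Itgal in Retnla/Ear2-high cells, Itga6 and Itgb2 in resident-like macrophages, Itgae and Itga4 in lymphocytes and Itgae in mature DCs, as given above, and Itgb5 in epithelial cells, which was called with RLE size factors and with cells of at least 1000 UMIs; the cause was not tested. With DESeq2, calls over all genes were 708 in cDC1s against cDC2s (1119 with edgeR), 939 in Retnla/Ear2-high cells against C1q macrophages (1514) and 480 in resident-like against C1q macrophages (857), and 2 members were called in lymphocytes against dendritic cells in place of 4. Without the library block, which pairs the classes of a capture, calls were 716 in cDC1s against cDC2s and 476 in resident-like macrophages, where 2 members were called in place of 4. Stricter marker limits gave 966 in Retnla/Ear2-high cells and left too few cells for 6 of the 8 comparisons. A further 2 alternatives were chosen after seeing the data: without the mature DC sum of replicate 2, calls in mature DCs were 653 in place of 1134, and the resident-like sum of replicate 2 was left out likewise. RLE gave an all-gene median of 0.28 in place of 0.07 in epithelial cells and of 0.23 in place of -0.03 in fibroblasts, and no member call was lost with it. A library alone has no residual degrees of freedom and gave values with no test. Of the 72 values, 27 were marked as moved without replicate 1 and 18 without replicate 2, and the others as the same. Some differences that were not called changed sign between replicate 1 and replicate 2. Among them were Itgb5 in lymphocytes against dendritic cells (-2.27 and 1.58) and in mature DCs against cDC2s (1.35 and -2.03). Itga6 in fibroblasts against myeloid cells (0.66 and -2.38) was another. Counts under about 20 UMIs, as for Itgae and Itga6 outside their main classes, limit what could be detected.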

Other observations

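Clusters built without the members differed in their integrins within the compared classes. A cluster of 57 cells led by Cd7 and Cyp7b1, of which 40 were in the cDC2 class and 13 in the monocyte gate, held Itgb7 at 190 CPM and no UMI of Itgae or Itgav. A cluster of 19 cells led by Wfdc2 and Cited1, all of them in the epithelial class, held Itga6 at 245 CPM. These are pooled over both libraries, not TMM-scaled, with no test.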
